A study of Mus musculus with 35 samples.

Results

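Nlrp3, Aim2, Nlrc4, Pycard, Casp1, Casp4 and Gsdmd, the genes of the core inflammasome and pyroptosis machinery, were followed across mouse skin wounds. They were taken by symbol, 7 of the 22830 symbols counted in each of the 2 count tables, and each was held by a single RefSeq row. Inflammasomes are cytosolic complexes that leukocytes and epithelial cells assemble when they sense microbes or damage. A sensor recruits the adaptor ASC, the adaptor recruits caspase-1, and the caspase matures Il1b and Il18 and cleaves gasdermin D, whose fragments form pores in the plasma membrane and end the cell's life by pyroptosis. In skin, keratinocytes are a well known source of Il18, and infiltrating neutrophils and macrophages of Il1b.

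The wounds came from C57BL/6 mice of both sexes, 8 to 12 weeks old, in which the fibroblast collagen gene Col5a1 was floxed. Col5a1CKO mice (CKO) also carried the tamoxifen-inducible driver Col1a2CreERT, and the controls, called WT, were Cre-negative Col5a1 fl/fl littermates that likewise received tamoxifen and a wound. The first count table held 7 WT and 7 CKO wounds at day 14, 3 CKO wounds of day 14 injected with WT fibroblasts on day 3, and 3 WT and 3 CKO wounds at day 19. The cilengitide count table held 4 WT and 4 CKO wounds given vehicle and 4 CKO wounds given cilengitide, a cyclic peptide inhibitor of alpha v integrins, at 20 mg/kg, all harvested at day 14. The time tag is missing for the cilengitide-treated wounds, and their day is taken from the treatment protocol. The labels of the first table name no vehicle, whereas the study describes the WT and CKO wounds it set against fibroblast-treated ones as given vehicle, so "under vehicle" names wounds of the cilengitide table only and does not mean that those of the first were untreated. The driver is active in collagen-producing fibroblasts, and no member was itself targeted. A treatment tag of the 3 CKO wounds at day 19 names WT fibroblasts, whereas their titles and count columns do not. The titles were followed, and the day 19 values hold only as far as these are right. The study describes its replicates as separate biological ones and its controls as littermates, and the labels do not say which wounds shared a litter.

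Totals ran from 15043531 to 35700325 counts in the first table and from 51211600 to 68266760 in the cilengitide table. The libraries of the first table fell into a lower and an upper set that differed in the balance of GC-rich and GC-poor genes. The lower set held 4 WT and 5 CKO wounds of day 14, and the upper set held all others, so genotype at day 14 could be compared within each set. WT replicate b of day 14 had the fewest detected genes and 0 reads of Nlrc4. Col5a1 itself was 2.7-fold lower in CKO than in WT wounds at day 14 (log2 fold change −1.43 ± 0.49 SE, adjusted p = 0.0757, edgeR). It was 3.24-fold lower at day 19 (adjusted p = 0.272) and 2.25-fold lower under vehicle (adjusted p = 0.232, edgeR). The groups overlapped each time, and Col5a1 was called (adjusted p under 0.05 and at least 2-fold) in none of these comparisons. Summed pan-leukocyte markers (Ptprc, Itgam, Itgb2, Laptm5, Coro1a) ran from 204 to 427 CPM in WT and from 582 to 2190 CPM in CKO wounds at day 14, and all 5 were called higher. Under vehicle the sum was 149 to 319 CPM in WT, 1370 to 4600 CPM in CKO and 501 to 1010 CPM in cilengitide-treated CKO wounds. The sum of 9 keratinocyte markers (Krt5, Krt14, Krt1, Krt10, Krt15, Trp63, Dsg3, Dsp, Cdh1) went the other way under vehicle, from 64100 to 102000 CPM in WT and from 73.5 to 12600 CPM in CKO wounds, with 35400 to 71400 CPM under cilengitide. No marker of these 2 lists stood at 0 in any wound. Xist passed 100 CPM in 2 of 4 WT, 0 of 4 CKO and 2 of 4 cilengitide-treated CKO wounds of the cilengitide table and in 2 of 7 WT, 3 of 7 CKO and 3 of 3 fibroblast-treated wounds of day 14, so the sexes were unevenly spread, and the part of sex was not tested. In the upper library set of day 14 it did so in 0 of 3 WT, 2 of 2 CKO and 3 of 3 fibroblast-treated wounds, so that sex and group cannot be told apart where WT is compared within that set. The Y-linked gene Ddx3y was at 122, 178 and 189 CPM in CKO vehicle replicates 1, 3 and 4. Replicate 2 had 0 reads of it and 0.911 CPM of Xist, so these genes do not settle the sex of that wound. The neutrophil list has 7 markers, of which 6 were counted, and Ly6g was not analysed here. In bulk tissue, fewer cells of a type and less RNA per cell cannot be told apart.

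The members lie at separate loci apart from the caspases. In the GENCODE annotation of NCBIM37 (mm9), the build of the counts, Nlrp3 spans chr11:59355070-59380458 on the plus strand, Aim2 chr1:175281010-175396171 on the plus strand, Nlrc4 chr17:74825635-74858448 on the minus strand, Pycard chr7:135135617-135137381 on the minus strand and Gsdmd chr15:75692769-75697834 on the plus strand. Casp1 at chr9:5298517-5307265 and Casp4 at chr9:5308828-5336783 are neighbours on the plus strand, and Spearman's rho between their levels was 0.53 over the 23 wounds of the first table and −0.03 over the 12 of the cilengitide table. Reads were counted over the exons of RefSeq genes, from strand-specific libraries.

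The sequences ahead of the start of Casp4, Nlrp3, Pycard and Casp1 are shown because under vehicle Casp4 and Nlrp3 were called higher in CKO wounds, Pycard lower and Casp1 neither. Each is the 250 bases upstream of a RefSeq start (GRCm38.p6), written 5′ to 3′ on the gene's strand, and capitals mark matches to any of 7 motifs searched on both strands.
Casp4, chr9:5308599-5308848, plus strand: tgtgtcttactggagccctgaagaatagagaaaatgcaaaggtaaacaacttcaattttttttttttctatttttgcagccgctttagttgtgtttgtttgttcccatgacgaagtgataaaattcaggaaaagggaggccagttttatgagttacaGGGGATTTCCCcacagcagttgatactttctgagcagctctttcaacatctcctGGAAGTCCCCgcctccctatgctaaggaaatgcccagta
Nlrp3, upstream start, chr11:59541319-59541568, plus strand: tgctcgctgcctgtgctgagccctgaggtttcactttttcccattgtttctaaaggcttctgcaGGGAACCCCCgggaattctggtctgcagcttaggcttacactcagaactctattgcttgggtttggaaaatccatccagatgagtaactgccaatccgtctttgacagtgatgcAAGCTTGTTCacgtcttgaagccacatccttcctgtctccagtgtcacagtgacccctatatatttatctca
Pycard, chr7:127993868-127994117, minus strand: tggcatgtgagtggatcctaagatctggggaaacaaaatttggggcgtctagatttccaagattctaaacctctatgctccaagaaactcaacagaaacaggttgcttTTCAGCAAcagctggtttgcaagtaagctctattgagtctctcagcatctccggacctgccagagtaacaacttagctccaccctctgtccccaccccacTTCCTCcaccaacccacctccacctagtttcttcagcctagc
Casp1, chr9:5298267-5298516, plus strand: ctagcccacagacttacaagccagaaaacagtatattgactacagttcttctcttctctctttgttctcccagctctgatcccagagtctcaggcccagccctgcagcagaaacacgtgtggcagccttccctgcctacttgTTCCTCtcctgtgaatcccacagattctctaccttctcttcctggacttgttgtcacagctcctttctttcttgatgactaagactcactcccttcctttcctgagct
The Casp4 window held kappaB matches on the plus strand at −93 and −92, which overlap, and on the minus strand at −39, counted from the start. The Nlrp3 window held a kappaB match at −186 and a p53 family match at −72, and the window of its other start held 3 PU.1 core matches (GAGGAA) and no kappaB match. The Pycard window held a C/EBP match (TTGCNNAA) at −142 and a PU.1 core match at −42, and the Casp1 window a PU.1 core match at −108. Aim2 held 2 PU.1 core matches and Nlrc4 a C/EBP match. Of all 32851 RefSeq windows of this length, 7.25% held the kappaB motif, 7.13% the p53 family motif, 23.3% GAGGAA and 9.56% TTGCNNAA. The AP-1 motif (TGANTCA), the ISRE core and the TATA box (TATAAA) were found in 6.75%, 2.98% and 12.4% of all windows and in none of the members' windows. A match is a run of letters in a window and was not tested for binding. No window of Gsdmd was analysed here.

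Measured per length, Pycard was the most abundant member in WT wounds, with a median of 108 RPKM (CPM from TMM-scaled counts, divided by transcript length in kilobases) at day 14, followed by Casp1 at 48.7 RPKM, Casp4 at 15.1 RPKM and Gsdmd at 9.89 RPKM. The sensors were low, at 1.77 RPKM for Aim2, 0.718 RPKM for Nlrp3 and 0.382 RPKM for Nlrc4. Neighbours in this order overlapped among the 7 WT wounds and were not separated. Pycard (86.3 to 140 RPKM) overlapped Casp1 (16.5 to 113 RPKM), which was the higher of the pair in WT replicates a (93.9 against 88.2 RPKM) and d (113 against 107 RPKM). Casp4 (5.26 to 48.7 RPKM) overlapped Casp1 and Gsdmd (4.72 to 20 RPKM), and Aim2 (0.298 to 8.47 RPKM) overlapped Gsdmd and Nlrp3 (0.016 to 18.0 RPKM), as Nlrp3 did Nlrc4 (0 to 1.54 RPKM). In CKO wounds at day 14 the median order was different, with Casp4 at 44.0 RPKM, Nlrp3 at 39.0 RPKM, Casp1 at 30.8 RPKM and Gsdmd at 27.3 RPKM ahead of Pycard at 9.02 RPKM.

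**Figure D1:**
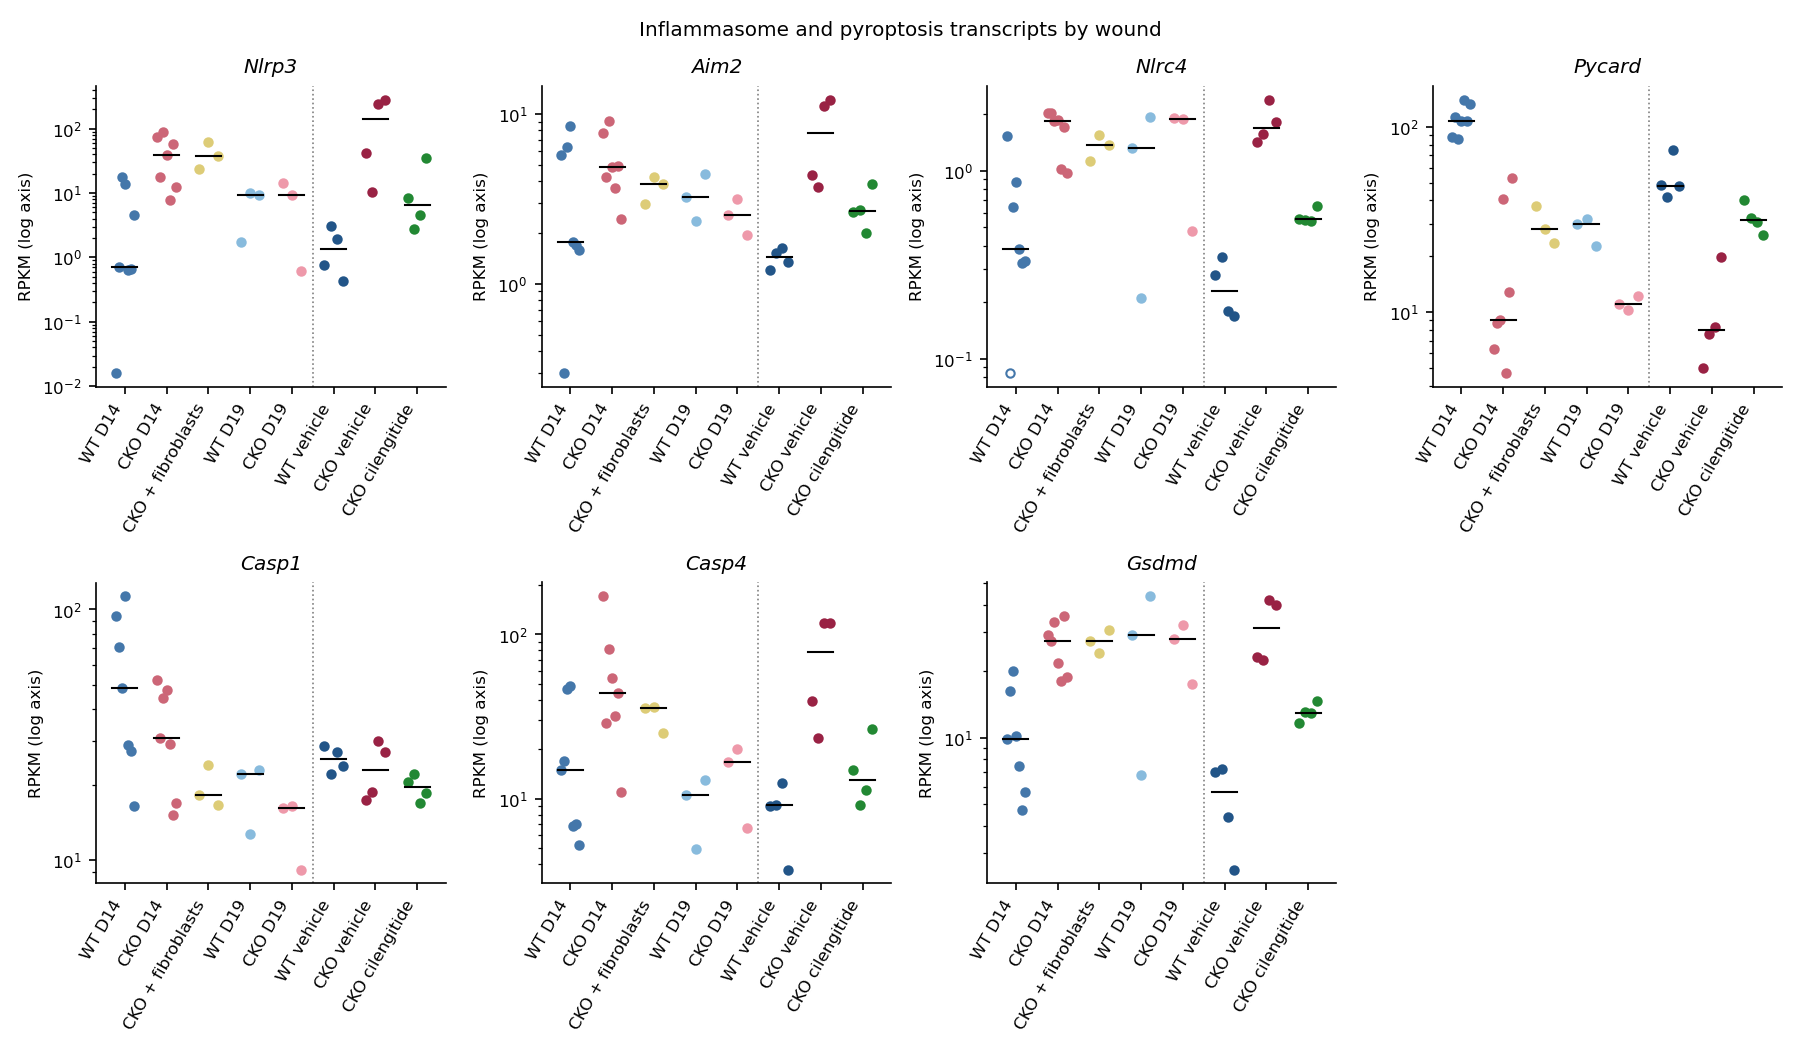
Levels of the 7 members in each wound, as RPKM on a log axis, with 1 point per wound, a black line at the group median and a dotted line between the 2 count tables. The open Nlrc4 point is a WT day 14 wound with 0 reads, drawn at a level under the lowest value. Pycard was lower in CKO than in WT wounds of the same day and table. Nlrp3, Aim2, Nlrc4, Casp4 and Gsdmd were called higher in CKO wounds under vehicle. At day 14 only Gsdmd was called higher, and at day 19 edgeR called no member. Casp1 ranges of WT and CKO wounds overlapped in each comparison without cilengitide.

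The clearest differences were between CKO and WT wounds under vehicle, where 6 of 7 members were called (adjusted p under 0.05 and at least 2-fold) and the same 6 did not overlap between the groups. Of all genes tested, 30.9% were called and 49.5% did not overlap in that comparison. Nlrp3, Casp4, Nlrc4, Gsdmd and Aim2 rose, Pycard fell and Casp1 was not called. The median log2 fold change was 2.58 over the 7 members and 0.024 over all genes.

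Among the sensors, Nlrp3, which responds to ion flux and membrane damage, was at 0.749, 3.07, 1.95 and 0.431 RPKM in the 4 WT vehicle wounds and at 41.6, 10.2, 245 and 281 RPKM in the 4 CKO vehicle wounds. CKO replicates 3 and 4 were the high wounds, and the lowest CKO wound was above the highest WT wound. The log2 fold change was 6.51 ± 1.28 SE (95% interval 3.55 to 9.48, adjusted p = 0.00513, edgeR). Nlrc4, which detects bacterial flagellin and secretion rods through its NAIP partners, was at 0.278, 0.348, 0.180 and 0.168 RPKM in WT and 1.43, 1.57, 2.39 and 1.82 RPKM in CKO vehicle wounds. These CKO wounds were close to each other, and the rise of 2.87 ± 0.33 on the log2 scale had the smallest adjusted p of the members (0.000828, edgeR). Aim2, the sensor of cytosolic DNA, was at 1.21, 1.52, 1.62 and 1.34 RPKM in WT and 4.39, 3.70, 11.1 and 12.1 RPKM in CKO vehicle wounds. It rose by 2.44 ± 0.42 (adjusted p = 0.00311, edgeR), with CKO replicates 3 and 4 again highest.

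Pycard, the adaptor ASC that links sensors to caspase-1, was at 48.3, 42.0, 75.3 and 47.6 RPKM in WT and 4.99, 7.65, 8.28 and 19.8 RPKM in CKO vehicle wounds. Every CKO wound was below every WT wound, and Pycard fell by 2.41 on the log2 scale (± 0.44 SE, adjusted p = 0.00378, edgeR). The highest CKO value was that of replicate 4, which also had the highest keratinocyte marker sum of its group.

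The caspases parted. Casp1, the caspase of the canonical complex, was at 28.7, 22.1, 27.0 and 23.8 RPKM in WT and 17.4, 18.7, 29.8 and 27.1 RPKM in CKO vehicle wounds, with overlapping groups. Its log2 difference was −0.14, with a 95% interval from −0.59 to 0.31 (adjusted p = 0.57, edgeR). Casp4, which binds intracellular lipopolysaccharide and acts without a sensor, was at 9.06, 9.20, 12.5 and 3.72 RPKM in WT and 39.2, 23.4, 118 and 117 RPKM in CKO vehicle wounds. The rise, without overlap, was 3.09 ± 0.62 on the log2 scale (adjusted p = 0.0056, edgeR). Gsdmd, the pore former that both caspases cleave, was at 7.01, 7.19, 4.36 and 2.53 RPKM in WT and 23.1, 22.5, 41.8 and 39.9 RPKM in CKO vehicle wounds, a rise of 2.58 ± 0.39 (adjusted p = 0.00193, edgeR).

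Their substrates divided in the same comparison. Il1b rose from 5.18, 71.2, 18.0 and 4.15 RPKM in WT to 1200, 466, 7870 and 7380 RPKM in CKO vehicle wounds (log2 fold change 7.39 ± 1.54, adjusted p = 0.00652, edgeR). Il18 fell from 148, 96.0, 186 and 185 RPKM to 7.78, 9.36, 16.3 and 40.7 RPKM, by 3.08 ± 0.57 on the log2 scale (adjusted p = 0.00395, edgeR). Neither cytokine's groups overlapped. Il1a, a cytokine that leaves dying cells and is not matured by caspase-1, was at 15.1 to 22.6 RPKM in WT and 11.4 to 556 RPKM in CKO vehicle wounds and was called higher with overlapping groups (4.02 ± 1.10, adjusted p = 0.0186, edgeR).

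**Figure D2:**
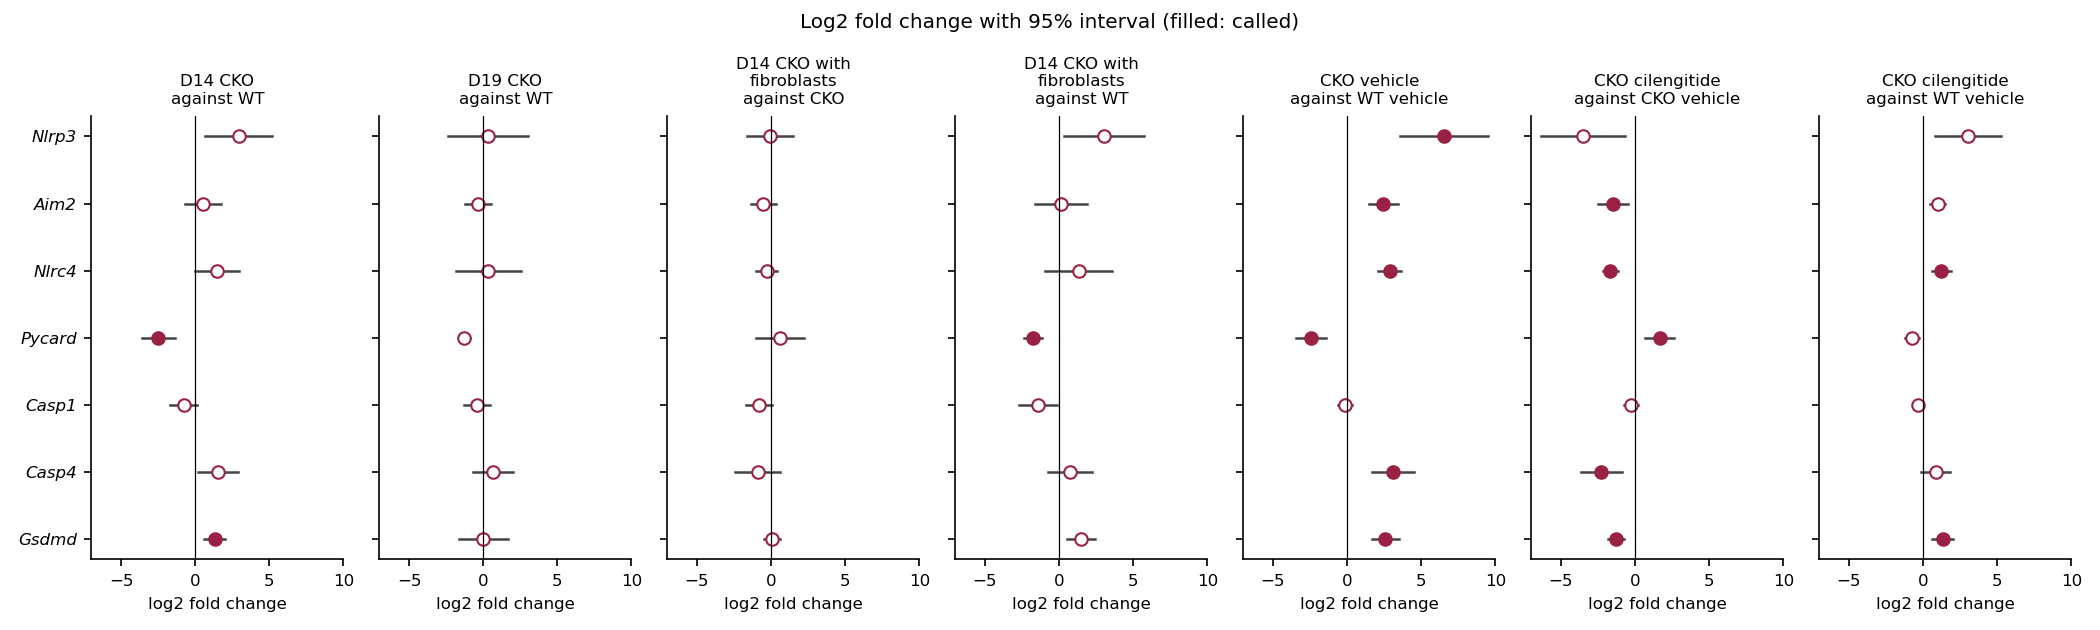
Log2 fold change of each member (x axis) in 7 comparisons, with the 95% interval as a line, and filled points where the member was called. Vehicle-treated CKO against WT wounds had 6 filled points, and Pycard was the only member left of 0 and called there.

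Under cilengitide Nlrc4, Gsdmd, Casp4 and Aim2 fell and Pycard rose. Against CKO vehicle wounds 5 of 7 members were called, with 13.1% of all genes called, and 3 did not overlap (Nlrc4, Pycard and Gsdmd), with 31.6% of all genes not overlapping. The members' median log2 fold change was −1.5 and that of all genes −0.061. These comparisons share the CKO vehicle wounds with the genotype comparison above, so opposite signs in the 2 comparisons are partly set by the same 4 wounds.

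In cilengitide-treated CKO wounds Nlrc4 was at 0.556, 0.548, 0.541 and 0.651 RPKM, and it fell by 1.66 ± 0.21 on the log2 scale against CKO vehicle (adjusted p = 0.00406, edgeR). Gsdmd was at 11.6, 13.1, 12.9 and 14.6 RPKM and fell by 1.30 ± 0.24 (adjusted p = 0.0107, edgeR). Pycard was at 40.0, 32.3, 30.6 and 25.9 RPKM, above every CKO vehicle wound and below every WT vehicle wound, and it rose by 1.65 ± 0.41 (adjusted p = 0.0262, edgeR). The Nlrc4 and Gsdmd calls held when any single wound was left out, although the share of all genes called then ran from 6.71% to 17.5%, lowest without cilengitide replicate 1. The Pycard call was lost without cilengitide replicate 1 (adjusted p = 0.0561) or without CKO vehicle replicate 3 (adjusted p = 0.0739, edgeR).

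Casp4 was at 14.9, 9.21, 11.3 and 26.7 RPKM under cilengitide, with replicate 4 above the lowest CKO vehicle wound, and its fall was 2.28 ± 0.61 on the log2 scale (adjusted p = 0.031, edgeR). Aim2 was at 2.65, 2.70, 2.00 and 3.87 RPKM and fell by 1.5 ± 0.44 (adjusted p = 0.0408, edgeR). These were the least stable calls, since leaving out single wounds moved the adjusted p of Casp4 to between 0.015 and 0.0835 and that of Aim2 to between 0.0191 and 0.106. The Casp4 call was lost without cilengitide replicate 1, 2 or 3 or CKO vehicle replicate 3. The Aim2 call was lost without any 1 of the 4 cilengitide wounds or without CKO vehicle replicate 3 or 4. Nlrp3, at 8.50, 2.77, 4.59 and 35.2 RPKM, had a log2 fold change of −3.52 ± 1.23 and was not called (adjusted p = 0.0707, edgeR). DESeq2 called it (adjusted p = 0.00249, 18.4% of all genes called), as did edgeR with all groups in a single fit (adjusted p = 0.0413, 14.9%), without cilengitide replicate 4 (adjusted p = 0.0425, 12%) or without CKO vehicle replicate 2 (adjusted p = 0.0358, 15.2%). Casp1 was at 20.5, 22.1, 16.9 and 18.6 RPKM, a log2 difference of −0.27 with a 95% interval from −0.73 to 0.20.

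Set against WT vehicle wounds, cilengitide-treated CKO wounds had 2 of 7 members called, with 8.58% of all genes called. Gsdmd was 2.49-fold higher (log2 1.32 ± 0.30, adjusted p = 0.0262, edgeR) and Nlrc4 2.36-fold higher (1.24 ± 0.29, adjusted p = 0.027, edgeR), both without overlap. Both calls were lost without cilengitide replicate 2, 3 or 4 or without WT vehicle replicate 3 (adjusted p from 0.0611 to 0.0693 for Gsdmd and from 0.0621 to 0.069 for Nlrc4, edgeR), and that of Nlrc4 also without WT vehicle replicate 4 (adjusted p = 0.0576, edgeR). Other genes lost their calls too, and the number called over all genes was 1331 with all wounds, 3, 1 and 1 without cilengitide replicate 2, 3 or 4, 283 without WT vehicle replicate 3 and 555 without WT vehicle replicate 4. Where the calls were lost, the log2 fold changes were 1.24 to 1.32 for Gsdmd and 1.11 to 1.27 for Nlrc4. Aim2 (1.98-fold higher, adjusted p = 0.025) and Pycard (1.65-fold lower, adjusted p = 0.0445) passed the p threshold in edgeR with less than a 2-fold difference and with groups that did not overlap. The share of all genes whose groups did not overlap was not counted for this comparison, so the lack of overlap is a description only. Nlrp3 had a log2 fold change of 3.05 ± 0.96 (adjusted p = 0.0563, edgeR) and was called by DESeq2 (adjusted p = 0.00669, with 14% of all genes called), and Casp4 had one of 0.86 ± 0.43 (adjusted p = 0.169, edgeR). Casp1, at 16.9 to 22.1 RPKM against 22.1 to 28.7 RPKM in WT vehicle wounds, was lower without overlap by a narrow margin. It was not called (log2 −0.37 ± 0.11, adjusted p = 0.0503, edgeR). Il18 also remained 2.06-fold lower than in WT vehicle wounds (adjusted p = 0.0238, edgeR), at 62.2 to 89.3 RPKM, although it had risen by 1.99 ± 0.52 against CKO vehicle (adjusted p = 0.0298, edgeR). Il1b, at 65.9 to 788 RPKM, fell by 3.84 ± 1.17 against CKO vehicle (adjusted p = 0.0469, edgeR) with overlapping groups.

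At day 14, in the 7 WT and 7 CKO wounds of the first table, 2 of 7 members were called, Pycard lower and Gsdmd higher, with 8.28% of all genes called. Pycard was also the only member of 7 whose groups did not overlap, against 4.03% of all genes. The median log2 fold change was 1.31 over the members and −0.032 over all genes.

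Pycard ran from 86.3 to 140 RPKM in WT wounds (median 108) and from 4.68 to 52.9 RPKM in CKO wounds (median 9.02). The 2 high CKO wounds, replicates d (40.6 RPKM) and g (52.9 RPKM), were those with the highest keratinocyte marker sums of their group (29700 and 62800 CPM), and the other 5 CKO wounds had at most 12.8 RPKM and at most 2210 CPM. Pycard fell by 2.50 ± 0.52 on the log2 scale (adjusted p = 0.0103, edgeR). Within the lower library set it was −2.84 (adjusted p = 0.0289), and within the upper set, of 3 WT and 2 CKO wounds, −1.86 (adjusted p = 0.118, edgeR). Gsdmd ran from 4.72 to 20 RPKM in WT wounds (median 9.89) and from 18.0 to 35.7 RPKM in CKO wounds (median 27.3), and it rose by 1.31 ± 0.33 (adjusted p = 0.023, edgeR). Its log2 fold change was 0.86 in the lower set (adjusted p = 0.0845) and 2.29 in the upper set (adjusted p = 0.0398, edgeR).

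The remaining members were not called at day 14. Nlrp3 ran from 0.016 to 18.0 RPKM in WT (median 0.718) and from 7.87 to 87.4 RPKM in CKO wounds (median 39.0), with a log2 fold change of 2.94 ± 1.05 (adjusted p = 0.0876, edgeR). The 2 WT wounds that reached into the CKO range, replicates c and d, also had Il1b at 1690 and 1380 RPKM, against at most 111 RPKM in the other 5 WT wounds. These 2 were also the only WT wounds of day 14 with Xist over 100 CPM (1010 and 730 CPM), and the part of sex was not tested. DESeq2 called Nlrp3 (adjusted p = 0.00971, 14.6% of all genes called), and so did edgeR with all groups in a single fit (adjusted p = 0.0387, 15.1%). Casp4 ran from 5.26 to 48.7 RPKM in WT and from 11 to 171 RPKM in CKO wounds (1.52 ± 0.63, adjusted p = 0.134, edgeR), and was called with the library set as a covariate (1.55 ± 0.47, adjusted p = 0.0304, edgeR). Nlrc4 ran from 0 to 1.54 RPKM and from 0.977 to 2.02 RPKM (1.47 ± 0.70, adjusted p = 0.188, edgeR), and was called in the upper set alone (2.06 ± 0.36, adjusted p = 0.0421, edgeR). Without WT replicate b, which had no Nlrc4 read, the same 2 members were called, with 8.15% of all genes called.

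Casp1 at day 14 ran from 16.5 to 113 RPKM in WT and from 15.1 to 52.2 RPKM in CKO wounds (log2 −0.77 ± 0.43, adjusted p = 0.257, edgeR). The library sets stood apart in both genotypes, with WT wounds at 48.7 to 113 RPKM in the lower and 16.5 to 28.9 RPKM in the upper set, and CKO wounds at 29.1 to 52.2 RPKM and 15.1 to 16.9 RPKM. In the lower set alone it was called lower in CKO (−1.01 ± 0.27, adjusted p = 0.0418), and in the upper set the difference was −0.50 ± 0.28 (adjusted p = 0.244, edgeR). Aim2 ran from 0.298 to 8.47 RPKM in WT and from 2.39 to 9.01 RPKM in CKO wounds, a log2 difference of 0.50 with a 95% interval from −0.71 to 1.71. Counted by set, 2 of 7 members were called in the lower set (6.6% of all genes), 2 in the upper set (9.23%) and 3 with the set as a covariate (12.9%).

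Of the substrates at day 14, Il18 fell from 119 to 420 RPKM in WT to 13.2 to 128 RPKM in CKO wounds, by 2.45 ± 0.56 on the log2 scale (adjusted p = 0.0149, edgeR). CKO replicates d (128 RPKM) and g (93.3 RPKM) were again the high wounds, and replicate d reached above the lowest WT wound. Il1b ran from 6.06 to 1690 RPKM in WT and from 219 to 3900 RPKM in CKO wounds and was not called (1.55 ± 1.2, adjusted p = 0.427, edgeR). Il1a was not called either (2.10 ± 0.76, adjusted p = 0.0905, edgeR).

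At day 19 none of the 7 members was called by edgeR, with 0.0198% of all genes called, and 1 member, Pycard, had an unadjusted p under 0.05. Pycard was at 30, 31.9 and 22.7 RPKM in WT and at 11, 10.2 and 12.2 RPKM in CKO wounds. The groups did not overlap, although the share of all genes for which this held was not counted at day 19. The log2 difference of Pycard was −1.27 ± 0.16 (adjusted p = 0.11, edgeR). DESeq2 called it (adjusted p = 4.18e-09, 9.23% of all genes called), as did edgeR without WT replicate c (adjusted p = 0.029). Without that wound the number called over all genes went from 3 to 1012 (6.54%), and without any other single wound it was 0. Nlrp3 was at 1.71, 10.1 and 9.23 RPKM in WT and 14.4, 9.40 and 0.614 RPKM in CKO wounds. Gsdmd was at 29.1, 6.79 and 43.7 RPKM in WT and 27.9, 32.2 and 17.5 RPKM in CKO wounds, with a log2 difference whose 95% interval ran from −1.66 to 1.65. For these genes the spread within a genotype was wider than the difference between genotypes. WT wounds at day 19 had 126 to 1080 CPM of summed pan-leukocyte markers and CKO wounds 211 to 886 CPM.

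The change of the genotype difference between day 14 and day 19 was tested as an interaction, and none of the 7 members was called by edgeR, nor had any an unadjusted p under 0.05. The interaction was called for 0% of all genes. DESeq2 called 0 members as well, and 0.213% of all genes. The estimate for Gsdmd, the member nearest to the threshold, was −1.33 with a 95% interval from −2.76 to 0.10 on the log2 scale, and that for Pycard 1.19 with an interval from −0.50 to 2.89.

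CKO wounds that had received WT fibroblasts held 28.2 RPKM of Pycard at the median (37.4, 28.2 and 23.7 RPKM). These values lay between the 5 low CKO wounds and all WT wounds of day 14. CKO replicates d (40.6 RPKM) and g (52.9 RPKM), without fibroblasts, lay above them, and g was in the same library set. Against CKO wounds without fibroblasts none of the 7 members was called by edgeR, none had an unadjusted p under 0.05 and DESeq2 also called 0, with 0% of all genes called by edgeR. The Pycard log2 difference was 0.62 with a 95% interval from −1.0 to 2.23, and in the upper library set alone it was −0.07. Nlrp3, at 23.2, 61.9 and 37.3 RPKM, differed by −0.06 with an interval from −1.61 to 1.5, and Gsdmd, at 27.5, 24.1 and 30.7 RPKM, by 0.05 with an interval from −0.49 to 0.59. All 3 fibroblast-treated wounds were in the upper library set, with 2 of the 7 CKO wounds.

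Against WT wounds of day 14 the fibroblast-treated wounds had 1 of 7 members called, with 5.84% of all genes called. Pycard was lower by 1.77 ± 0.27 on the log2 scale (adjusted p = 0.00336, edgeR), and Gsdmd was higher without overlap but not called (1.49 ± 0.43, adjusted p = 0.0672, edgeR). The share of all genes without overlap was not counted here. Without single fibroblast-treated wounds 1.81% to 2.51% of all genes were called. The members' count depended on the library set. With the set as a covariate 3 members were called (16.7% of all genes), and within the upper set, of 3 WT and 3 fibroblast-treated wounds, 6 members were called (31% of all genes). Xist was under 100 CPM in all 3 WT wounds there and over it in all 3 fibroblast-treated wounds, so sex and group cannot be told apart in these values. In that set Nlrp3 was higher by 4.51 ± 1.02 (adjusted p = 0.0172), Casp4 by 2.48 ± 0.20 (adjusted p = 0.000299), Gsdmd by 2.36 ± 0.21 (adjusted p = 0.000374), Nlrc4 by 2.11 ± 0.26 (adjusted p = 0.000973) and Aim2 by 1.28 ± 0.21 (adjusted p = 0.00282, edgeR). Pycard was lower by 1.94 ± 0.21 there (adjusted p = 0.000642), and Casp1 differed by −0.16 ± 0.24 (adjusted p = 0.605, edgeR).

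The members' balance within a wound was described by ratios of RPKM, which carry no test here. Casp4 over Casp1 was 0.161 to 0.952 in WT wounds of day 14 (median 0.258) and 0.655 to 3.27 in CKO wounds (median 1.13). Under vehicle it was 0.156 to 0.465 in WT, 1.25 to 4.32 in CKO and 0.417 to 1.44 in cilengitide-treated CKO wounds. Nlrp3 over Pycard had the widest span, from 0.000181 to 0.209 in WT and from 0.231 to 11.6 in CKO wounds at day 14. Under vehicle it was 0.00905 to 0.0732 in WT and 1.33 to 29.6 in CKO wounds, and under cilengitide 0.0858 to 1.36. The sensor was thus counted below its adaptor in every WT wound and above it in every CKO vehicle wound.

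**Figure D3:**
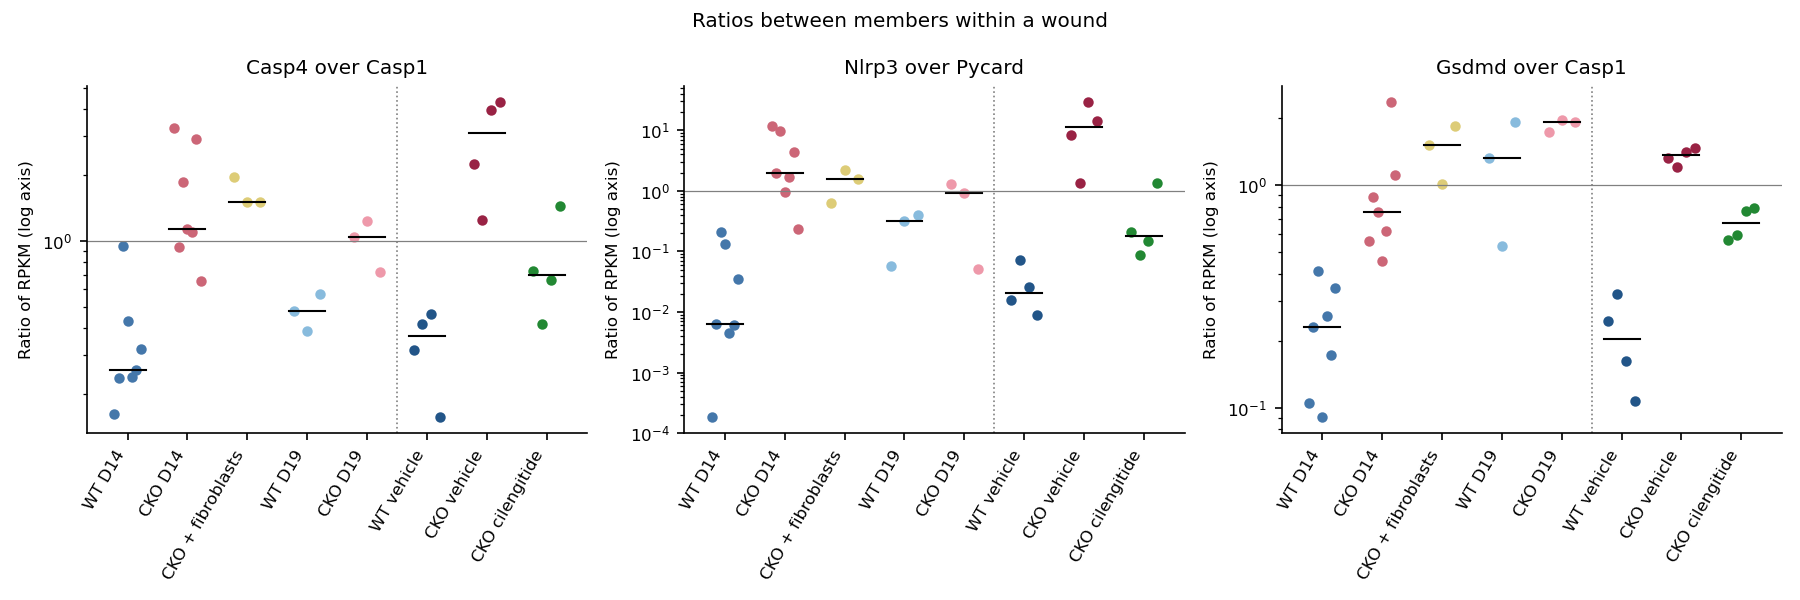
Ratios of RPKM between members within a wound, on a log axis, with 1 point per wound, a line at the group median and a grey line at a ratio of 1. Casp4 over Casp1, Nlrp3 over Pycard and Gsdmd over Casp1 were all higher in every CKO vehicle wound than in every WT vehicle wound.

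Cell type markers were set beside these values. Relative to the pan-leukocyte sum, Casp4 was at 35.6 to 80.2 CPM per 1000 CPM of markers in WT vehicle, 24.5 to 38.3 in CKO vehicle and 24.6 to 37.8 in cilengitide-treated wounds. Gsdmd was at 30.1 to 45.2, 15.4 to 29.2 and 25.7 to 45.8, and Nlrc4 at 3.09 to 4.73, 1.52 to 4.41 and 2.47 to 4.15. Aim2 was at 9.6 to 22.7, 6.39 to 6.86 and 9.69 to 12.8. On this scale the medians of Casp4 (34.5), Gsdmd (20.3), Nlrc4 (2.62) and Aim2 (6.58) in CKO vehicle wounds were under those in WT vehicle wounds (43.7, 36.8, 3.82 and 16.0). Gsdmd and Aim2 did not overlap between these groups. Nlrp3 was at 9.45 to 43.7 in WT, 29.9 to 245 in CKO and 20.8 to 140 in cilengitide-treated wounds, with medians of 23.3, 160 and 47.6. Nlrp3 ranges overlapped at day 14 (0.201 to 172 in WT, 54.4 to 238 in CKO) and at day 19 (8.69 to 325 and 11.7 to 65.1). Casp1 was at 118 to 241 in WT vehicle, 8.91 to 20.7 in CKO vehicle and 27.8 to 62.2 in cilengitide-treated wounds, without overlap. Summed neutrophil markers ran from 102 to 2240 CPM in WT, from 1710 to 47200 CPM in CKO and from 3300 to 7590 CPM in cilengitide-treated wounds, and summed monocyte and macrophage markers from 330 to 1270, 3950 to 8970 and 1730 to 2340 CPM. T cell markers summed to 32.5 to 57.6, 23.8 to 54.2 and 27.0 to 46.3 CPM, and Cd3d, Cd3e, Cd3g and Cd2 were at 0 in at least 1 WT wound of day 14.

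Pycard was also set against the keratinocyte sum. It was at 1.01 to 1.59 CPM per 1000 CPM of keratinocyte markers in WT vehicle and 1.2 to 1.56 in cilengitide-treated wounds. CKO vehicle wounds were at 3.34 to 222, above both. Their keratinocyte sums were 73.5 to 12600 CPM, against 64100 to 102000 CPM in WT vehicle wounds. With so small a divisor, the ratio does not show how much Pycard each keratinocyte held. At day 14 the range was 1.53 to 7.38 in WT and 1.80 to 320 in CKO wounds, and the highest values were from wounds with almost no keratin counts. The library sets differed. In the lower set WT wounds were at 5.36 to 7.38 and CKO wounds at 2.92 to 320. The lowest was CKO replicate d, with a keratinocyte sum of 29700 CPM, and it was under every WT wound of that set. In the upper set WT wounds were at 1.53 to 2.62 and CKO wounds at 1.80 and 121. At day 19 Pycard was at 2.57 to 3.32 in WT and 1.21 to 3.13 in CKO wounds. The part of leukocyte and keratinocyte content in the members' differences was not tested.

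**Figure D4:**
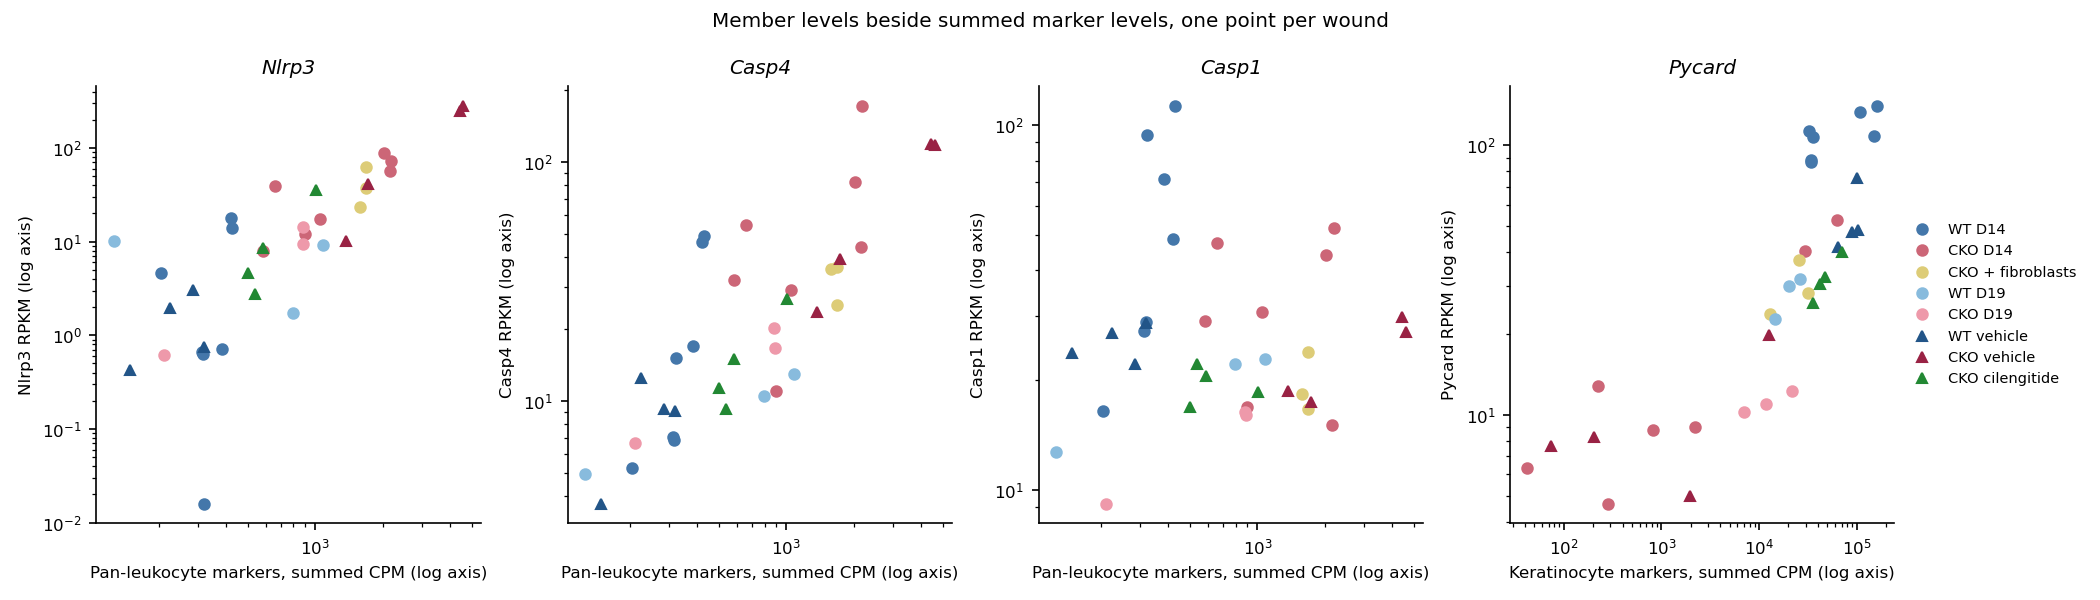
Nlrp3, Casp4 and Casp1 RPKM against the summed CPM of 5 pan-leukocyte markers, and Pycard RPKM against that of 9 keratinocyte markers, with 1 point per wound and log axes, and triangles for the cilengitide table. Nlrp3 and Casp4 points climb with the leukocyte sum, Casp1 points do not, and the 4 CKO vehicle and 5 of the CKO day 14 wounds, with keratinocyte sums of at most 12600 CPM, had at most 19.8 RPKM of Pycard.

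The genes with levels most like each member over wounds were found by Spearman's rho of log2(CPM + 1), taking the lower value of the 23 wounds of the first table and the 12 of the cilengitide table, among 13787 genes. These wounds share genotype groups, tissue makeup and library set, so the values are descriptions. For Nlrp3 they were Irg1 (rho 0.97 and 0.98), Cd14 (0.96 and 0.99) and Hdc (0.95 and 0.99), genes known from activated myeloid cells and, for Hdc, histamine synthesis. For Casp4 they were Clec4d (0.95 and 0.95), 2810474O19Rik (0.94 and 0.94) and the pan-leukocyte tetraspanin Cd53 (0.93 and 0.92). For Pycard they were 2310003C23Rik (0.97 and 0.98), the desmosomal gene Perp (0.96 and 0.97) and Gpr115 (0.96 and 0.96). Gsdmd was most like Ctsz, Cfp and P2rx4, Nlrc4 most like Tifa, Aoah and Hgsnat, and Aim2 most like Gm19705, Gm885 and Sp140. Casp1 had the lowest likeness at its best, with Ikbkg (0.89 and 0.92), Tpt1 (0.86 and 0.86) and Vps26a (0.87 and 0.85). Between members, Nlrp3 and Pycard had a rho of −0.44 over the 23 wounds and −0.85 over the 12, whereas Pycard and Il18 had 0.87 and 0.99 and Nlrp3 and Il1b 0.94 and 0.99.

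The wider pathway, 53 other genes on lists of sensors, caspases, pore formers, substrates, activators and inhibitors, was counted in the same fits. Under vehicle, 32 of the 49 genes tested were called higher and 6 lower in CKO than in WT wounds, where 17.5% of all genes were called higher and 13.4% lower. Cilengitide lowered 18 and raised 3 of 49 against CKO vehicle, with 6.59% and 6.48% of all genes. Against WT vehicle, cilengitide-treated CKO wounds still had 10 higher and 4 lower of 49 (5.15% and 3.43% of all genes). At day 14 there were 6 higher and 2 lower of 47 (5.57% and 2.71% of all genes), in fibroblast-treated against WT wounds 7 higher and 3 lower of 49 (3.77% and 2.06%), and at day 19 and in fibroblast-treated against CKO wounds none of 49 and of 47 (edgeR).

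The other sensors went both ways, whereas the member sensors Nlrp3, Aim2 and Nlrc4 all rose under vehicle. Under vehicle 7 of 11 were called higher and 2 lower, with a median log2 fold change of 2.80. Nlrp12 (0.0145 to 0.194 RPKM in WT, 2.53 to 10.8 in CKO) rose by 6.31 ± 0.96 (adjusted p = 0.00195), Mefv, the pyrin gene (0.363 to 1.44 and 9.43 to 70.4 RPKM), by 5.56 ± 0.81 (adjusted p = 0.00172) and Naip2 (0.426 to 1.22 and 6.21 to 25.3 RPKM) by 4.15 ± 0.55 (adjusted p = 0.00128, edgeR). Nlrp10 went the other way, from 15.3 to 37.3 RPKM in WT to 0.183 to 0.954 RPKM in CKO wounds, and fell by 5.95 ± 0.67 (adjusted p = 0.000828, edgeR). Under cilengitide Nlrp10 rose by 4.12 ± 0.62 (adjusted p = 0.00652) and Naip2 fell by 2.71 ± 0.49 (adjusted p = 0.0105, edgeR). At day 14 the called sensors were Nlrp12 (4.63 ± 1.13), Mefv (2.76 ± 0.59), Naip2 (2.33 ± 0.47) and, lower, Nlrp10 (−3.50 ± 0.90), with adjusted p from 0.00933 to 0.0248 (edgeR). The Naip genes are close copies of each other, so reads may have been split between them.

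Pore formers other than Gsdmd were led by gasdermins of the epidermis. Under vehicle 3 were called lower and 2 higher of 7 tested. Gsdma ran from 115 to 144 RPKM in WT and from 0.076 to 17.8 RPKM in CKO wounds, a fall of 4.76 ± 1.63 (adjusted p = 0.0431, edgeR), and Gsdma3 from 3.12 to 5.58 RPKM to at most 0.0297 RPKM. Gsdma2 had no read in any CKO vehicle wound and was at least 73.1-fold lower than in WT, taking 3 reads over the group as the floor. Dfna5, the gasdermin E gene, rose by 2.88 ± 0.36 (adjusted p = 0.00112, edgeR), from 0.469 to 0.985 RPKM in WT to 3.27 to 7.79 RPKM in CKO wounds. Against CKO vehicle, cilengitide-treated wounds had 1 of 6 tested pore formers called higher and 2 lower, with a median log2 fold change of 2.73. The higher was Gsdma3, with 88, 94, 59 and 152 reads under cilengitide against 0, 0, 0 and 2 in CKO vehicle wounds (adjusted p = 0.00458, edgeR). Cilengitide lowered Dfna5 by 2.09 ± 0.33 (adjusted p = 0.00715) and Ninj1, the mediator of membrane rupture, by 2.00 ± 0.55 (adjusted p = 0.0346, edgeR). The Gsdma genes are close copies, and their separate values are uncertain. Of the 4 other caspases, Casp12, Casp6 and Casp8 were called higher under vehicle, by 1.05 to 2.13 on the log2 scale, and none was called in any other comparison.

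Activators and upstream genes were called in 1 direction only in each comparison, with 12 of 16 higher under vehicle and 7 of 16 lower under cilengitide. Zbp1, a nucleic acid sensor upstream of cell death, rose by 2.98 ± 0.48 under vehicle (adjusted p = 0.00241), and the guanylate-binding protein genes Gbp5 and Gbp2, which act on pathogen membranes ahead of Casp4, by 2.79 ± 0.67 (adjusted p = 0.011) and 2.44 ± 0.30 (adjusted p = 0.00102, edgeR). At day 14 the called activators were Ripk3, the necroptosis kinase, at 5.55 to 10 RPKM in WT and 14.8 to 33.3 RPKM in CKO wounds (1.72 ± 0.23, adjusted p = 0.00264), and Irf8 (1.36 ± 0.32, adjusted p = 0.0161, edgeR). Inhibitors moved the same way as activators. Under vehicle 6 of 8 were called higher, among them Tnfaip3, the A20 gene that restrains NF-kappaB (3.67 ± 0.63, adjusted p = 0.00298), and the decoy and antagonist of the Il1 receptor, Il1r2 (2.82 ± 0.76, adjusted p = 0.0174) and Il1rn (2.74 ± 0.78, adjusted p = 0.0219, edgeR). Tnfaip3 was the called inhibitor at day 14, at 1.80 to 6.06 RPKM in WT and 5.23 to 89.0 RPKM in CKO wounds (3.36 ± 0.59, adjusted p = 0.00579, edgeR), and cilengitide lowered it by 2.73 ± 0.71 (adjusted p = 0.0284, edgeR).

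**Figure D5:**
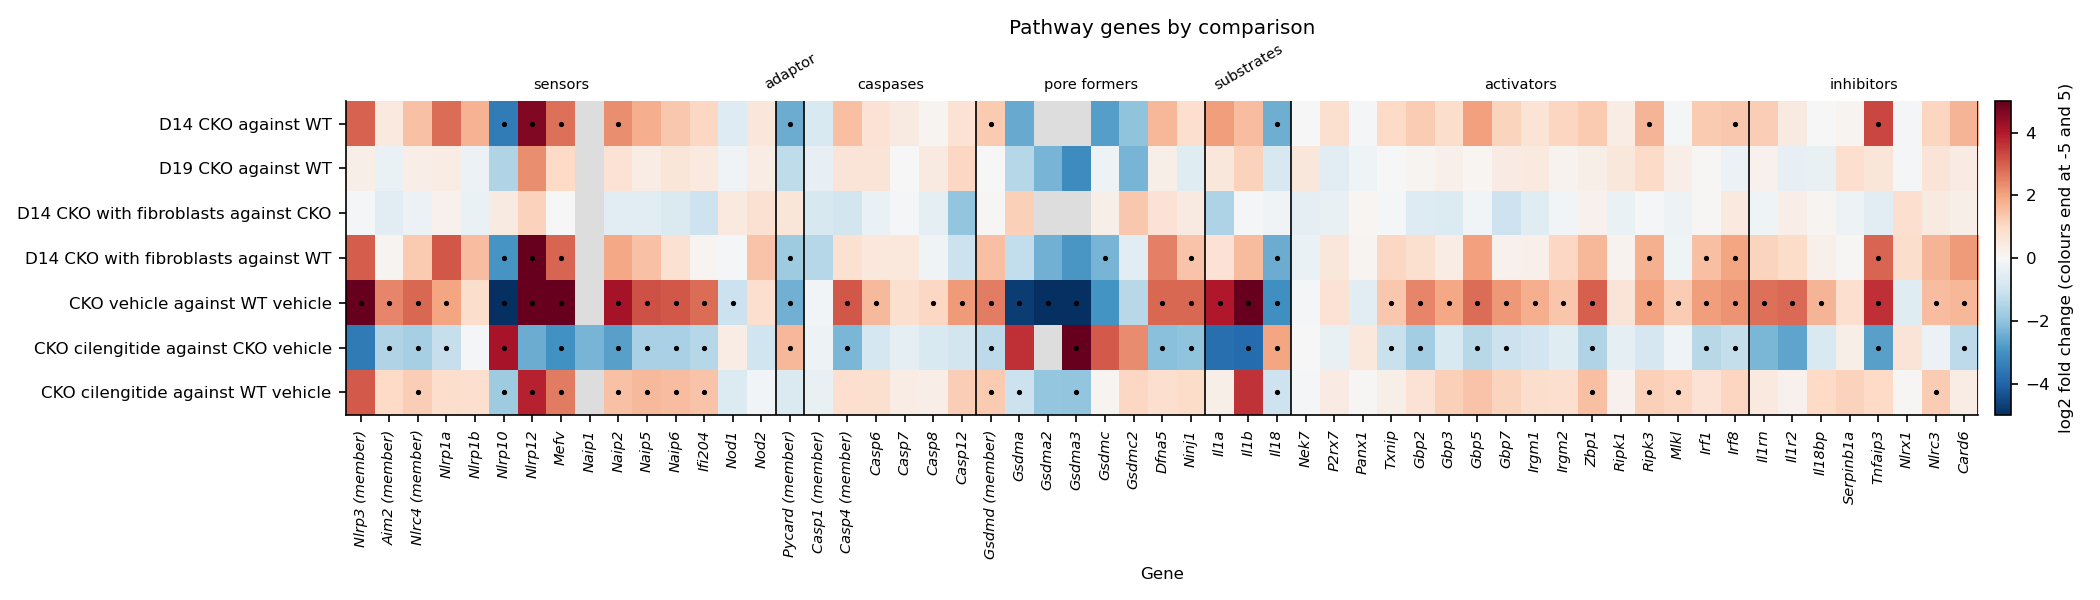
Log2 fold change of the members and the other pathway genes (x axis, grouped by role) in 7 comparisons (y axis), in red where higher and blue where lower in the group named before "against", with colours ending at −5 and 5. Dots mark called genes and grey cells genes not tested, and CKO against WT under vehicle has the most dots, 6 members and 38 other genes.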

How the data were processed

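The authors deposited raw counts, which the methods describe as single-end reads aligned with HISAT2 to NCBI37/mm9 and counted over RefSeq exons with SeqMonk. Whether the cilengitide libraries were made the same way is not given in the sources used here. The first table lists transcripts with lengths and the cilengitide table lists symbols, so the lengths of the first table served for RPKM in both, and levels are not compared across tables. For each symbol the row with most counts was kept. Rows that name no gene (30 and 1) held at most 0.0694% of counts and were left out. CPM and RPKM are from TMM factors.

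Pairs of groups were fitted with edgeR 4.0.16 in R 4.3.3 (quasi-likelihood test with robust dispersion, TMM, and genes kept by filterByExpr at a count of 10), with Benjamini-Hochberg adjustment over all genes tested. A gene was called at adjusted p under 0.05 and at least 2-fold. All 7 members passed the filter in every comparison. The fits were tested on simulated data. No library pair agreed within sampling noise. Members and lists were chosen with earlier results of these data known. Named were the members, Il1b, Il18, Il1a and, per list and comparison, up to 4 called genes with the largest change. A listed gene that is not reported here was left out of the lists. Alternatives were DESeq2 1.42.0, RLE factors, no TMM factors, no filter beyond 1 count, a 3-fold rule, all groups in a single fit, the replicate letter as a block, other RefSeq rows, library sets and leaving out single wounds. Leaving out WT replicate b was added after seeing the data. Sequences are from RefSeq (GRCm38.p6), with 6 of 7 members matched. Figures were drawn with matplotlib 3.10.9 in Python 3.11.15.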

Additional observations from a re-analysis of the deposited data

Results flagged for a closer look

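Of 35 combinations of a member and a group of 4 or 7 wounds, 1 held a wound far from the others. In cilengitide-treated CKO wounds Nlrc4 was at 0.651 RPKM in replicate 4 and at 0.541 to 0.556 RPKM in the other 3. The gap was 0.864 of the group's range, against a critical value of 0.829. Chance flags about 1 in 20 groups, and all 4 wounds stayed between the WT vehicle and the CKO vehicle wounds. The cause was not tested.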

How the results depend on the processing

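The count of members called under vehicle (6) kept its size under every alternative run. The share of all genes called ran from 25.5% to 35.4% over these runs and was 21.3% under a 3-fold rule. The day 14 count was 1 under a 3-fold rule (4.36% of all genes) in place of 2. For cilengitide against CKO vehicle, the count was 3 under the 3-fold rule (7.76% of all genes). With single wounds left out it was 2 to 6 (6.71% to 17.5% of all genes). Against WT vehicle it was 0 under the 3-fold rule (3.85%) and 0 to 3 with single wounds left out (0.00635% to 11.4%). At day 19, DESeq2 called 1 member (9.23% of all genes), and leaving out single wounds gave 0 to 1 (0% to 6.54%). For fibroblast-treated against WT wounds the count was 2 with DESeq2 (13.3% of all genes), 3 with all groups in a single fit (12.4%), 3 with the library set as a covariate (16.7%) and 6 in the upper set alone (31%), as Nlrp3, Aim2, Nlrc4, Casp4 and Gsdmd joined Pycard. The letters were not taken as pairs, since the labels do not say that a shared letter links 2 wounds. Correlated deviations over 0.1 were found in 5 of 7 same-letter pairs at day 14, 0 of 3 at day 19 and 2 of 3 in each fibroblast comparison. At day 14 all letters but e also shared a library set in WT and CKO wounds. This check therefore cannot tell a pairing from a shared set and does not settle whether the letters are pairs. With the replicate block the counts were 3 at day 14 (Casp4 joined, adjusted p = 0.0438, 9.22% of all genes called) and 0 at day 19 (0.0463%). For the fibroblast comparisons the block kept letters a to c only, 3 against 3 wounds, with all fibroblast-treated wounds in the upper and all others in the lower library set, so that block, wounds and set changed together. The counts were then 1 against CKO (Pycard, log2 1.86, adjusted p = 0.0234, 16.8% of all genes) and 2 against WT wounds (Casp1 joined, log2 −1.88, 21.7%). No paired fit was possible under vehicle and cilengitide because the numbers there name wounds only.

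Reversed signs came only where the member was not called in the comparison as reported. For fibroblast-treated against CKO wounds these were, with the library set as a covariate, Nlrp3 0.24, Aim2 0.01, Pycard −0.14, Casp1 0.29 and Casp4 0.23. In the upper set alone they were Nlrp3 0.28, Aim2 0.06, Nlrc4 0.05, Pycard −0.07, Casp1 0.35 and Casp4 0.27. By library size only Nlrp3 was 0.03, with the replicate block Gsdmd was −0.15, and without single wounds Nlrp3 ran from −0.48 to 0.23 and Gsdmd from −0.04 to 0.14. For fibroblast-treated against WT wounds Aim2 was −0.02 with all groups in a single fit and −0.08 to 0.22 without single wounds, lowest without WT replicate b. At day 19 Nlrp3 was −0.11 by library size only, −0.10 with the replicate block and −0.39 to 0.86 without single wounds. Nlrc4 was −0.17 to 0.94 and Gsdmd −0.47 to 0.58 without single wounds, and Gsdmd 0.30 with the block. The interaction of Casp1 was −0.13 by library size only. Library size only moved the median of all genes from −0.032 to 0.133 at day 14, from 0.027 to 0.162 in fibroblast-treated against WT wounds, from −0.01 to −0.392 at day 19 and from −0.006 to −0.534 in the interaction. The cause of these shifts was not tested. Over all genes, calls by DESeq2 were 1397 at day 19, against 3 by edgeR, and 19 against 0 for fibroblast-treated against CKO.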
